A study of Mus musculus with 6 samples.

Results

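The genes of arginine and nitric oxide metabolism described here are Arg1, Arg2, Nos2, Slc7a2, Slc7a1, Ass1 and Odc1, taken by name from the array annotation. All 7 were on the array, with 11 probes between them, among 22096 genes tested in all. The cells were M-MDSCs, the monocytic kind of myeloid-derived suppressor cell (an immature myeloid cell that can restrain T cells), sorted by flow cytometry from C57BL/6 mice. The groups were lung M-MDSCs of mice given azacytidine plus entinostat, lung M-MDSCs of mock (vehicle) mice, bone marrow M-MDSCs of the treated mice and bone marrow M-MDSCs of the mock mice. Azacytidine inhibits DNA methyltransferases, and entinostat inhibits class I histone deacetylases. Each of 6 two-colour Agilent mouse arrays carried treated RNA in the red dye Cy5 and mock RNA in the green dye Cy3, with 3 arrays for each tissue. Per the labels, 3 to 6 mice were pooled for a treated sample and 1 or 2 for a mock sample, and the mock mice were 6 to 8 weeks old. The sources used here do not give the dose, the duration or the age of the treated mice. The dyes were never swapped and the tissues were hybridised on separate slides. Treatment therefore cannot be told apart from dye, nor tissue from slide.

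Arginine enters cells through cationic amino acid transporters, of which Slc7a1 encodes the constitutive and Slc7a2 the inducible one of myeloid cells. Inside the cell it is split to ornithine and urea by arginase 1 (Arg1, cytosolic) or arginase 2 (Arg2, mitochondrial), or oxidised to nitric oxide and citrulline by inducible nitric oxide synthase (Nos2). Argininosuccinate synthase (Ass1) starts the return of citrulline to arginine, and ornithine decarboxylase (Odc1) takes ornithine into the polyamines. Arginine depletion by arginase and nitric oxide from Nos2 are known means by which MDSCs restrain T cells.

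Each probe was 60 bases long and was spotted on 1 spot per array. The first 30 bases of 5 probes are given 5′ to 3′ on the probe's own strand, because the results on Arg1, Nos2 and Odc1 rest on them. Positions are those of build mm9 in the scanner files.
Arg1, A_51_P303160, chr10:24636194-24636253, minus strand: aactctgggaattaagtatttctccatgac
Nos2, A_55_P2158741, chr11:78773567-78773626, plus strand: caccatgccgccgctctaatacttagctgc
Odc1, A_52_P436238, chr12:17554799-17554858, plus strand: gggttatctatgcaaatccttgtaaacaag
Odc1, A_55_P1995173, chr12:17557831-17557890, plus strand, read from its base that aligns with the start of A_55_P2035102: ccagaagcTtatgttgtgacccattgtgaa
Odc1, A_55_P2035102, chr12:17557836-17557895, plus strand: ccagaagcGtatgttgtgacccattgtgaa
The capitals mark the base at which the last pair of Odc1 probes differ. They overlap by 55 bases and differ within them by T9G, counted from 1 at the 5′ end of A_55_P2035102, with the base of A_55_P1995173 first. Another Odc1 probe, A_55_P1982818, overlaps A_55_P1995173 by 22 bases. The remaining one, A_52_P436238, starts 3032 bases before A_55_P1995173. Ass1 had 2 probes that start 70 bases apart on chromosome 2 and do not overlap, and Arg2, Slc7a2 and Slc7a1 had 1 probe each. No gene annotation of build mm9 was used here, so exons and untranslated regions are not assigned. Where a gene had several probes, the brightest represented it, which was A_55_P1995173 for Odc1 and A_55_P2004781 for Ass1.

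Between 54.6% and 68.6% of probes were well above background in the treated channel and between 49.5% and 61.9% in the mock channel, and no spot was saturated. The sorted cells were checked against monocyte markers. All 11 measured ones were well above background on at least 1 array in each of the 4 combinations of tissue and channel. So were all 9 measured neutrophil markers. The monocyte markers did not move as 1 list: 2 were higher and 4 lower in treated than in mock lung, 1 higher and 3 lower in treated than in mock marrow, and 2 higher and 6 lower in mock lung than in mock marrow. The red signal of negative control spots after background correction was 137 intensity units on lung replicate 2 and 290.3 on bone marrow replicate 1, against 63.3 to 66.0 on the other arrays. Some of the results that change without either array are given below, and they are not a complete list. The precision of every value is limited by 3 arrays per tissue.

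In lung M-MDSCs, Arg1 was 5.36-fold higher in treated than in mock cells, Slc7a2 was 1.31-fold higher, and the other 5 genes did not pass the test. Ratios are log2 of treated over mock, so that a positive value means higher in treated cells, which follows the dyes in the labels. The column headings of the authors' deposited matrices name the opposite direction, mock over treated, but their values followed Cy5 over Cy3 with correlations of 0.986 to 0.997 across spots. The test was limma's moderated test with Benjamini-Hochberg adjustment over all genes and a threshold of 0.05 on the adjusted p. By it, 2 of the 7 genes were higher and 0 lower in treated lung cells, against 34.0% of all genes tested called in either direction, 4410 higher and 3100 lower. The median ratio of the 7 was 0.14, and that of all genes 0.01.

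Arg1 gave red signals of 6844, 7019 and 7584 intensity units in treated lung cells, against green signals of 1267, 444.8 and 669 in mock lung cells. Every treated spot was brighter than every mock spot, although the channels are not on 1 scale before normalization. After normalization, the log2 ratio was 1.71, 3.07 and 2.49 in replicates 1, 2 and 3, a mean of 2.42 ± 0.68 (SD, n = 3), or 5.36-fold (limma adjusted p = 0.00026). The fit shares 1 spread over both tissues, so this p does not rest on the lung spread alone. The marrow ratios of Arg1 had an SD of 0.05 and came from spots not well above background. Channel levels on the log2 scale were 11.76, 11.92 and 11.94 in treated lung and 10.05, 8.85 and 9.45 in mock lung. The treated levels lay within a narrow range, the mock levels were spread more widely, and the groups did not overlap. The call held under all 17 alternative settings run for it, with ratios between 2.10 and 2.78. Because these are bulk RNA samples, more cells that express a gene and more RNA per cell cannot be told apart.

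Markers of other cell types moved in the same lung samples. Of 12 macrophage markers, 12 were higher in treated lung, with a median ratio of 1.96, and their mean log2 level was 12.53 to 12.82 in treated lung and 10.79 to 11.19 in mock lung. Of 10 alveolar macrophage markers 8 were higher, of 9 neutrophil markers 6, of 8 lung epithelial markers 7 and of 8 endothelial markers 7, and none of these lists had a lower member. The mean level of the neutrophil markers was 10.72 to 11.94 in treated lung and 9.64 to 10.62 in mock lung. That of the epithelial markers was 10.96 to 11.40 in treated lung and 9.48 to 10.03 in mock lung, where Epcam and Nkx2-1 were not well above background in any mock lung array. All 7 B cell markers were lower, with a median ratio of -1.33 and a mean level of 7.49 to 7.79 in treated lung and 8.77 to 9.15 in mock lung. The part of these changes in the Arg1 result was not tested.

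The other arginase did not pass the test in lung. Arg2 had ratios of -0.31, 0.76 and 0.40, a mean of 0.28 ± 0.54 (SD, n = 3; 95% interval -0.18 to 0.74; limma adjusted p = 0.322). Nos2 had ratios of -0.48, 0.61 and 0.29, a mean of 0.14 ± 0.56 (SD, n = 3; 95% interval -0.28 to 0.55; limma adjusted p = 0.600). For both genes replicate 1 was below 0 and the other two replicates above it. Levels of Nos2 were 7.88, 8.28 and 8.05 in treated lung and 8.37, 7.67 and 7.76 in mock lung, so that the groups overlapped and the highest value of all was mock replicate 1. Without lung replicate 1, both genes passed the test, Arg2 with a ratio of 0.58 (limma adjusted p = 0.0368) and Nos2 with 0.45 (limma adjusted p = 0.0152). Without lung replicate 2, which had the highest ratio of both, the values were 0.0428 for Arg2 and -0.0994 for Nos2, and neither passed.

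Lung replicate 1 had the lowest ratio of the 3 lung arrays for 6 of the 7 genes, and the highest mock level for 6 of the 7. Over all genes, the lowest ratio lay on replicate 1 in 41.2% and the highest mock level in 37.8%. Slc7a2 was the exception for the ratio, with its highest value on that array. On the same array the macrophage and neutrophil marker lists had their lowest mean mock level, 10.79 and 9.64, against 11.03 and 11.19 for macrophages and 9.79 and 10.62 for neutrophils in mock lung replicates 2 and 3. The monocyte, B cell, dendritic cell and endothelial lists also had their lowest mean mock level on replicate 1 (13.395, 8.77, 8.79 and 9.21). Those of alveolar macrophages, lung epithelium, T and NK cells, eosinophils and erythroid cells did not. The part of these differences in the gene ratios was not tested.

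The arginine transporters differed in lung. Slc7a2 had ratios of 0.77, 0.15 and 0.25, a mean of 0.39 ± 0.33 (SD, n = 3), or 1.31-fold (limma adjusted p = 0.0355). It was higher in treated cells on all 3 arrays. Its levels were 7.63, 6.88 and 7.21 in treated lung and 6.87, 6.73 and 6.95 in mock lung, so that the groups overlapped. The Slc7a2 call was lost without lung replicate 1 (ratio 0.20, limma adjusted p = 0.104), lung replicate 3 (0.0573), bone marrow replicate 1 (0.0628) or bone marrow replicate 2 (0.0584). It was also lost with the lung arrays fitted alone (0.0988), the scanner's processed signals (0.0791) and median centring (0.182), all adjusted p from limma. Slc7a1 had ratios of -0.30, -0.09 and 0.23, a mean of -0.05 ± 0.27 (SD, n = 3; 95% interval -0.34 to 0.24; limma adjusted p = 0.787).

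Neither of the downstream enzymes passed in lung. Ass1 had ratios of -0.25, 0.15 and 0.23, a mean of 0.05 ± 0.25 (SD, n = 3; 95% interval -0.18 to 0.27; limma adjusted p = 0.759). Odc1 had ratios of -1.09, -0.46 and 0.24, a mean of -0.44 ± 0.67 (SD, n = 3; 95% interval -0.93 to 0.06; limma adjusted p = 0.156). The Odc1 ratio was below 0 on 2 arrays and above it on 1. Without lung replicate 3, the ratio of Odc1 was -0.77 and passed (limma adjusted p = 0.0131), and without lung replicate 1 it was -0.11 and did not pass (limma adjusted p = 0.676).

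**Figure D1:**
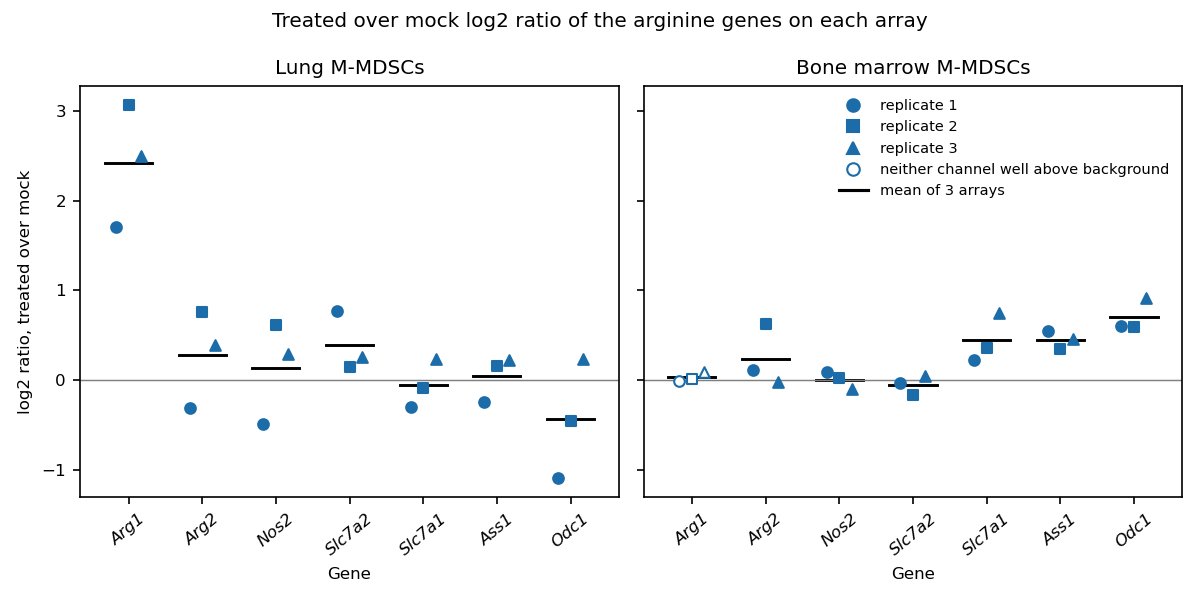
Log2 ratio of treated over mock (y axis) for each of the 7 genes (x axis) on each of the 3 lung arrays and the 3 bone marrow arrays, with the mean as a bar. Arg1 stands at 1.71 to 3.07 in lung and near 0 in bone marrow, where neither of its channels was well above background, and Slc7a1, Ass1 and Odc1 lie above 0 on every bone marrow array.

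In bone marrow M-MDSCs Ass1 rose, the ratios of Odc1 and Slc7a1 were above 0 on every array without passing the test, and Arg1 was not well above background. Of the 7 genes 1 was higher and 0 lower, against 14.4% of all genes tested called, 1603 higher and 1577 lower. The median ratio of the 7 was 0.24, and that of all genes 0.02.

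Ass1 had levels of 12.34, 12.38 and 12.31 in treated marrow and 11.80, 12.04 and 11.85 in mock marrow, with no overlap. Its ratios were 0.55, 0.35 and 0.45, a mean of 0.45 ± 0.10 (SD, n = 3), or 1.36-fold (limma adjusted p = 0.0255). The second Ass1 probe gave 0.47 (limma adjusted p = 0.0277). The call of Ass1 was lost when any 1 bone marrow replicate was left out (limma adjusted p of 0.0983, 0.0852 and 0.0951 without replicates 1, 2 and 3). In all it was lost under 6 of the 17 alternatives, among them when the arrays were scaled to each other (0.0581) or centred on the median in place of loess (0.277).

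Odc1 had levels of 11.16, 11.15 and 11.20 in treated marrow and 10.56, 10.55 and 10.28 in mock marrow, again with no overlap. Its ratios were 0.61, 0.59 and 0.92, a mean of 0.71 ± 0.18 (SD, n = 3; 95% interval 0.21 to 1.20; limma adjusted p = 0.0636). This ratio is larger than that of Ass1, but Odc1 varied more in lung, and the fit shares 1 spread over both tissues. Fitted on the bone marrow arrays alone, Odc1 passed (limma adjusted p = 0.00749). It also passed without lung replicate 1 (limma adjusted p = 0.0158) or lung replicate 3 (limma adjusted p = 0.0181). The other 3 Odc1 probes gave bone marrow means of 0.56, 0.53 and 0.22, each above 0 on all 3 arrays and none past the threshold.

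Slc7a1 had levels of 10.86, 10.99 and 11.68 in treated marrow and 10.64, 10.63 and 10.93 in mock marrow. Its ratios were 0.23, 0.36 and 0.75, a mean of 0.45 ± 0.27 (SD, n = 3; 95% interval 0.15 to 0.74; limma adjusted p = 0.0538). The levels overlapped between the groups, although treated exceeded mock on each array. Slc7a1 passed in 8 of the alternatives run, among them the fit on bone marrow alone (limma adjusted p = 0.0458) and the fits without lung replicate 1 (0.0364) or lung replicate 3 (0.0432, both adjusted p).

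Slc7a2 was near its background in marrow, well above it on 2 of 3 arrays in each channel. Its ratios were -0.03, -0.16 and 0.04 (mean -0.05 ± 0.10, SD, n = 3; limma adjusted p = 0.802). Nos2 was well above background in both channels on all 3 arrays, with levels of 7.12, 7.23 and 6.97 in treated marrow and 7.02, 7.21 and 7.07 in mock marrow. Its ratios were 0.09, 0.03 and -0.10, a mean of 0.01 ± 0.10 (SD, n = 3; 95% interval -0.41 to 0.42; limma adjusted p = 0.987). Nos2 was dim there, with signal minus local background of 59.8, 66.6 and 55.9 units in treated and 62.1, 72.2 and 61.9 in mock marrow. From the scanner's processed signals its marrow ratios were spread more widely, at 0.44, -0.20 and -0.56. Arg2 had ratios of 0.12, 0.63 and -0.02, a mean of 0.24 ± 0.34 (SD, n = 3; 95% interval -0.22 to 0.70; limma adjusted p = 0.439), and only replicate 2 stood away from 0.

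Arg1 was not well above background in either channel on any bone marrow array. Its signal minus local background was 7.14, 10.3 and 13.5 intensity units in treated marrow and 43.7, 48.3 and 41.6 in mock marrow. The green channel had a higher residual background on these arrays: negative control spots stood at 5.67 to 7.49 units above local background in red and 37.3 to 41.0 in green. The normalised log2 ratios of Arg1 in marrow, -0.01, 0.01 and 0.09, are therefore ratios of signals not well above background and measure no response to treatment.

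**Figure D2:**
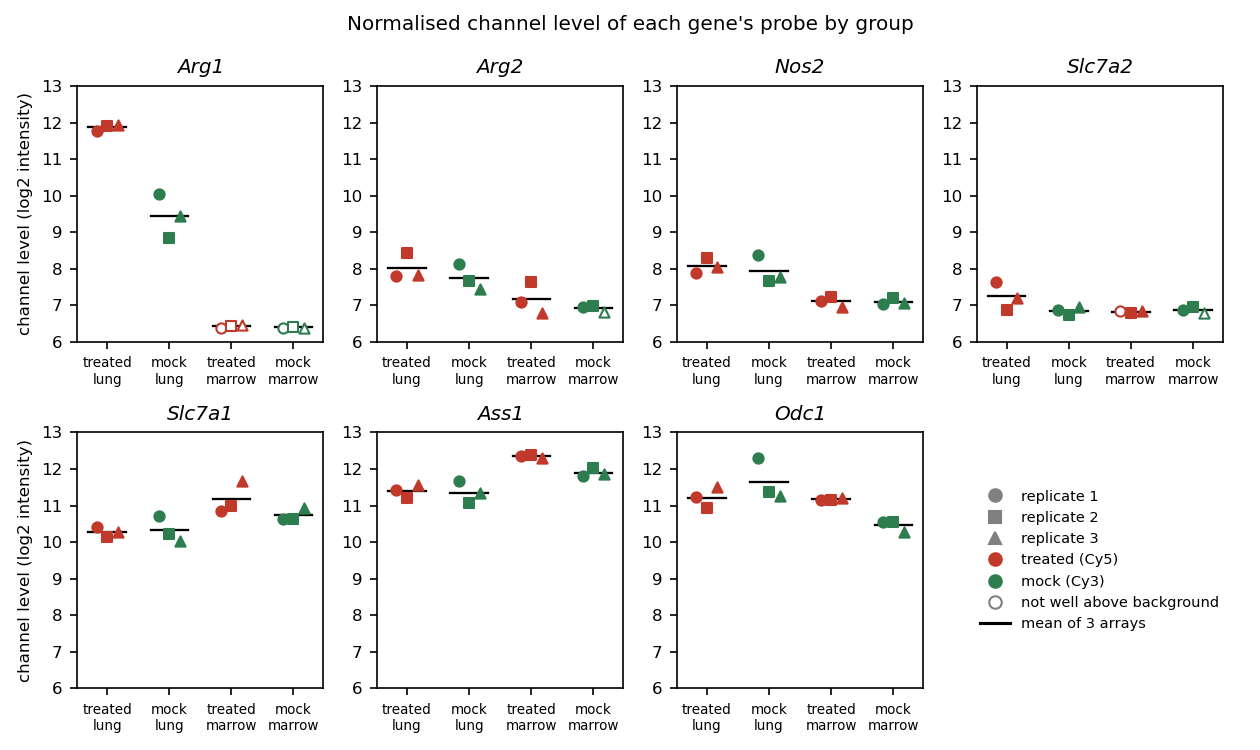
Normalised channel level (log2 intensity, y axis) of the probe that represents each gene in treated lung, mock lung, treated marrow and mock marrow cells, with 3 arrays per group and the mean as a bar; open symbols were not well above background. Arg1 lies between 11.76 and 11.94 in treated lung and between 8.85 and 10.05 in mock lung, and is open throughout in marrow.

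Odc1 passed the test of a difference between the lung and the bone marrow response, with a lower ratio in lung. Arg1 passed the same test with a higher ratio in lung, but its marrow response was not measured. Of the 7 genes, 1 thus had a higher and 1 a lower ratio in lung than in marrow, against 15.2% of all genes tested called, 2162 higher and 1206 lower. The fitted difference of Arg1 was 2.39 (limma adjusted p = 0.00344), which sets the lung ratio of 2.42 against a marrow value of 0.03 from spots not well above background, and it is not a measured difference between 2 responses. Odc1 had a mean ratio of -0.44 in lung and 0.71 in marrow, a difference of -1.14 (limma adjusted p = 0.0427). Every lung ratio of Odc1 lay below every marrow ratio. The Odc1 call was lost without any 1 bone marrow replicate (limma adjusted p of 0.0928, 0.111 and 0.114 without replicates 1, 2 and 3) or without lung replicate 2 (0.101). It was also lost with the scanner's processed signals (0.0526), scaling between arrays (0.05003), no filter (0.0516) and median centring (0.474). The other 3 Odc1 probes gave differences of -0.67, -0.97 and -0.67 that did not pass.

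For the remaining genes the difference of ratios did not pass. It was -0.50 for Slc7a1 (95% interval -0.91 to -0.08; limma adjusted p = 0.0988), -0.40 for Ass1 (-0.72 to -0.08; 0.0883) and 0.44 for Slc7a2 (0.06 to 0.82; 0.109). Slc7a1 and Ass1 thus had lower and Slc7a2 a higher mean ratio in lung, with intervals that leave out 0 before adjustment. It was 0.04 for Arg2 (95% interval -0.61 to 0.70) and 0.13 for Nos2 (-0.46 to 0.72), and those intervals are wide enough to hold differences of over 0.5 either way for Arg2.

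**Figure D3:**
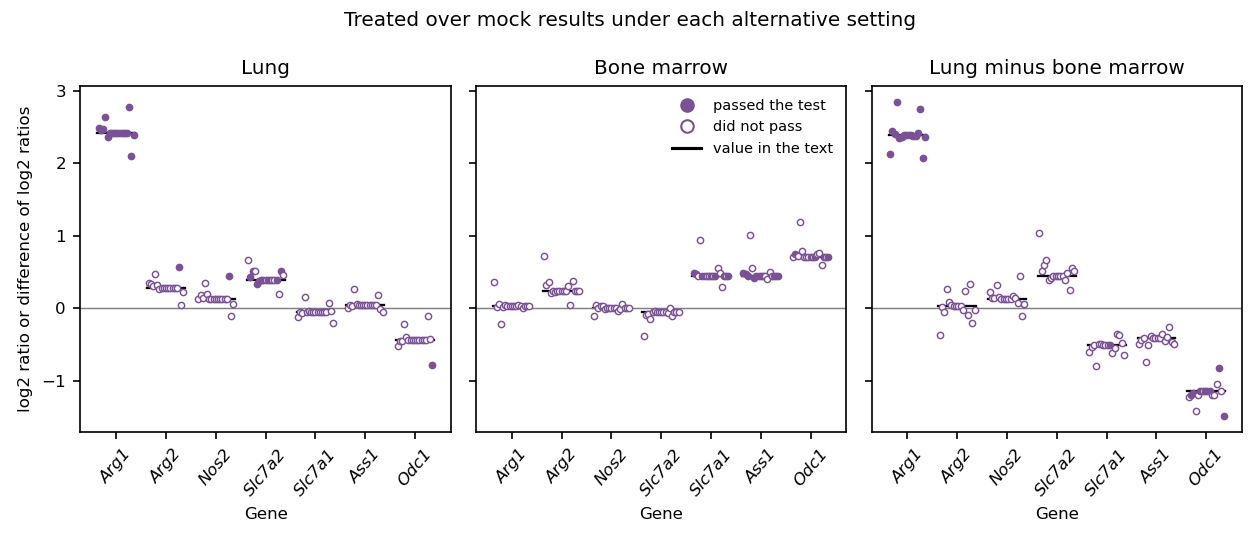
Log2 ratio, or difference of log2 ratios (y axis), of each gene under every alternative setting (points; filled where the test was passed) with the value given in the text as a bar, for lung, bone marrow and their difference. Arg1 stays filled at 2.10 to 2.78 in lung, whereas the points of Ass1, Odc1 and Slc7a1 in marrow are filled under some settings and open under others.

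The level of each gene was also compared between the tissues within each channel. These comparisons set Cy5 against Cy5 or Cy3 against Cy3 across 2 slides. In treated cells, 3 of the 7 genes were higher in lung (Arg1, Arg2 and Nos2) and 2 lower (Slc7a1 and Ass1), against 62.4% of all genes tested called. In mock cells, 4 were higher (Arg1, Arg2, Nos2 and Odc1) and 1 lower (Ass1), against 66.0% of all genes tested called. The shares of members called were thus near those of all genes.

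Arg1 averaged 11.87 ± 0.10 in treated lung, which was 42.8-fold above the floor set for treated marrow (limma adjusted p = 2.78e-08). In mock cells it averaged 9.45 ± 0.60, 8.14-fold above the floor set for mock marrow (limma adjusted p = 2.44e-05; SD, n = 3 arrays). Both folds are set against a floor, because Arg1 was not well above background in marrow. Its measured means there were 6.42 in treated and 6.39 in mock cells. The floor was the dimmest level that counted as well above background on each marrow array, or the probe's own level where higher. It is not a detection limit. Slc7a2 was not well above background at 6.84 in treated marrow replicate 1, nor was Arg2 at 6.82 in mock marrow replicate 3. The folds are therefore not strict lower bounds. They were computed from the mean lung level and leave out the spread of the lung arrays. The adjusted p values belong to the fitted log2 differences, 5.45 in treated cells (95% interval 5.25 to 5.65) and 3.06 in mock cells (2.46 to 3.65).

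Markers of other cell types differed between the tissues in the same samples. In treated cells, 12 of 12 macrophage markers were higher in lung than in marrow (median difference 3.50), as were 8 of 10 alveolar macrophage markers (3.54), 7 of 8 lung epithelial markers (5.85) and 8 of 8 endothelial markers (2.89). In mock cells the counts were 10 of 12 for macrophages (median difference 1.78) and 7 of 10 for alveolar macrophages (2.00), with 2 alveolar macrophage markers lower. They were 6 of 8 for lung epithelium (3.53) and 7 of 8 for endothelium (2.01), and 7 of 7 B cell markers were higher as well. Of 9 neutrophil markers, 6 were lower and 2 higher in lung in treated cells (median difference -1.82). In mock cells 6 were lower and 0 higher (-2.98). The part of these differences in the levels of Arg1 and the other genes was not tested.

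Arg2 averaged 8.02 ± 0.34 in treated lung and 7.17 ± 0.42 in treated marrow (difference 0.86, limma adjusted p = 0.0148). In mock cells the means were 7.74 ± 0.35 in lung and 6.93 ± 0.09 in marrow (difference 0.82, limma adjusted p = 0.00251; SD, n = 3 each). The Arg2 call in treated cells was lost without bone marrow replicate 1 (limma adjusted p = 0.0518). Nos2 averaged 8.07 ± 0.20 in treated lung and 7.11 ± 0.13 in treated marrow (difference 0.96, limma adjusted p = 0.000316), and 7.93 ± 0.38 in mock lung and 7.10 ± 0.10 in mock marrow (difference 0.83, limma adjusted p = 0.00326). For both genes, the lung groups lay above the marrow groups of the same channel without overlap.

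Ass1 averaged 11.40 ± 0.18 in treated lung and 12.34 ± 0.04 in treated marrow (difference -0.94, limma adjusted p = 0.000145). The means in mock cells were 11.36 ± 0.31 in lung and 11.90 ± 0.12 in marrow (difference -0.54, limma adjusted p = 0.0133). The difference in mock cells was lost without bone marrow replicate 2 (-0.47, limma adjusted p = 0.0567) and from the scanner's processed signals (-0.23, limma adjusted p = 0.294). Slc7a1 averaged 10.28 ± 0.14 in treated lung and 11.18 ± 0.44 in treated marrow (difference -0.90, limma adjusted p = 0.00597). In mock cells its difference of -0.40 did not pass (limma adjusted p = 0.0712), but without lung replicate 1 it was -0.60 and did (limma adjusted p = 0.00201). Slc7a2 did not pass in treated cells (difference 0.42, limma adjusted p = 0.0668) or in mock cells (difference -0.02, limma adjusted p = 0.844). Without lung replicate 2, the Slc7a2 difference in treated cells was 0.60 and passed (limma adjusted p = 0.0101).

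In order of level across the 4 combinations, Arg1, Arg2 and Nos2 were highest in treated lung, followed by mock lung and the marrow groups. Neighbours in that order overlapped for Arg2 and Nos2 between treated and mock lung and between treated and mock marrow, and for Arg2 mock lung also overlapped treated marrow. Ass1 and Slc7a1 had the opposite order of tissues, with treated marrow highest, then mock marrow, and the overlapping lung groups lowest. For Slc7a1 mock marrow overlapped both treated marrow and mock lung. The Slc7a2 mean was highest in treated lung, and its levels overlapped among mock lung, treated marrow and mock marrow. For the probe that represents Odc1, mock lung had the highest mean and mock marrow the lowest, and treated lung overlapped both mock lung and treated marrow.

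The Odc1 probes did not give 1 answer between the tissues. The probe that represents the gene averaged 11.65 ± 0.58 in mock lung and 10.46 ± 0.16 in mock marrow, a difference of 1.19 (limma adjusted p = 0.00399), and the overlapping probes gave 1.14 and 1.05. The probe that starts 3032 bases earlier, A_52_P436238, averaged 9.15 ± 0.36 in mock lung and 11.76 ± 0.39 in mock marrow, a difference of -2.61 (limma adjusted p = 2.5e-05). In treated cells its difference was -3.28 (limma adjusted p = 1.2e-06), against 0.04, 0.16 and 0.38 for the 3 overlapping probes. Of those 3, A_55_P1982818 alone passed in treated cells (limma adjusted p = 0.0379), and that call was lost in 9 of 10 alternatives. By A_55_P1995173 Odc1 was 2.28-fold higher in mock lung than in mock marrow, and by A_52_P436238 it was 6.11-fold lower.

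The distance between the highest and the lowest of the 4 Odc1 probes in mock cells was 3.80 on the log2 scale. It was exceeded by 38 of 4591 genes with several probes, whose median distance was 0.52. Such a range tends to grow with the number of probes, for which the genes were not matched. The 2 Ass1 probes lay 0.10 apart. Opposite calls from probes of 1 gene were common in this comparison, in 631 of the 4591 genes (13.7%) in treated cells and 754 (16.4%) in mock cells. They were rarer in the ratios of treated over mock, in 48 genes (1.05%) in lung and 6 (0.131%) in marrow. An opposite call needs more than 1 probe to pass, and fewer genes passed in the ratios. The shares of all genes called were 34.0% in lung and 14.4% in marrow. Between the tissues they were 62.4% in treated and 66.0% in mock cells, so the counts cannot be compared directly. The 4 Odc1 probes had means of one sign within each tissue, -0.45 to -0.11 in lung and 0.22 to 0.71 in marrow. The near-identical pair that differs by T9G gave -0.44 each in lung, and in marrow 0.71 for A_55_P1995173 and 0.53 for A_55_P2035102.

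**Figure D4:**
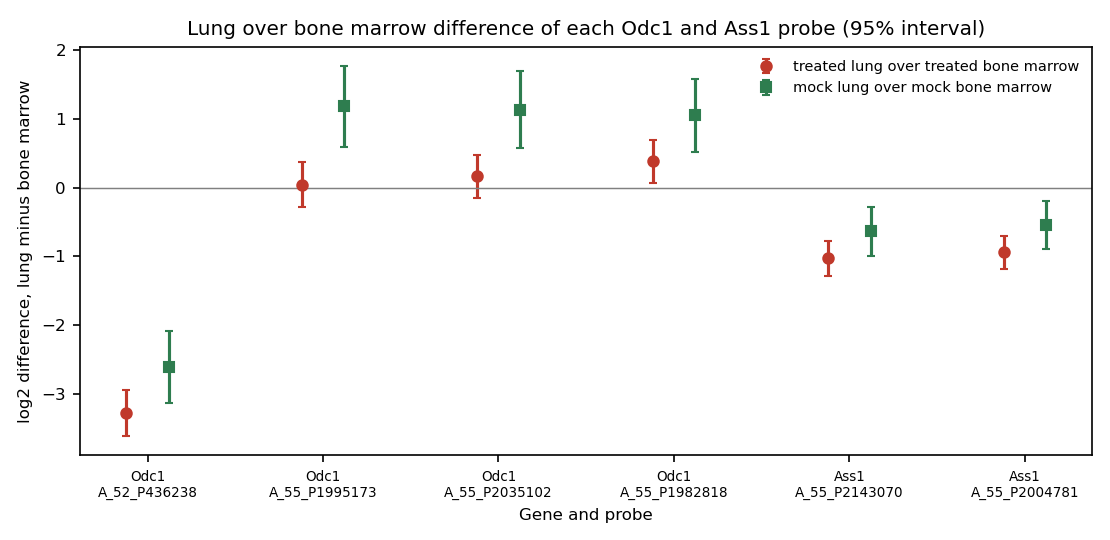
Log2 difference of lung minus bone marrow (y axis) of each Odc1 and Ass1 probe, in treated cells (circles) and mock cells (squares), with the 95% interval of the limma fit. A_52_P436238 lies at -3.28 and -2.61, while the other 3 Odc1 probes lie between 0.04 and 1.19 and both Ass1 probes lie below 0.

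The neighbouring steps of the pathway were read from 9 lists of genes, whose counts stand against 34.0% of all genes called in lung and 14.4% in marrow. Of 6 further arginine transporters and exchangers, 5 were bright enough to be tested. Slc7a7, an exporter of cationic amino acids, fell in marrow (-0.40, limma adjusted p = 0.0438), the other 4 did not pass there, and in lung none of the 5 passed. Of 6 further genes of the urea cycle and arginine synthesis 4 were tested, and Got1, an aspartate aminotransferase, rose in lung (0.50, limma adjusted p = 0.0126) and in marrow (0.81, limma adjusted p = 0.00634). Slc25a13, a mitochondrial aspartate and glutamate carrier, fell in lung (-0.41, limma adjusted p = 0.0331).

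Among nitric oxide synthases and their partners, 7 of 8 genes were tested, of which 5 rose and 1 fell in lung (against 34.0% of all genes called there), and 0 rose and 1 fell in marrow (against 14.4%). Ddah2, which breaks down methylated arginines that inhibit nitric oxide synthases, had ratios of 1.54, 1.15 and 1.28 in lung, a mean of 1.32 ± 0.20 (SD, n = 3; limma adjusted p = 8.73e-05). Its mean in marrow was 0.21, and the difference of 1.11 passed (limma adjusted p = 0.00209). Gucy1a1 and Gucy1b1, the subunits of soluble guanylate cyclase, the receptor of nitric oxide, rose in lung with means of 0.95 and 0.55 (limma adjusted p = 0.00115 and 0.00336), and neither was well above background in marrow. The spread shared by the fit thus includes their marrow SDs of 0.06 and 0.01 from such spots, against 0.36 and 0.25 in lung. Nosip, named for its interaction with endothelial nitric oxide synthase, fell in lung (-0.36, limma adjusted p = 0.00322) and in marrow (-0.23, limma adjusted p = 0.0400). Of 6 genes of tetrahydrobiopterin, the cofactor of nitric oxide synthases, Pts rose in marrow (0.56, limma adjusted p = 0.00440), and none of the 6 passed in lung. In the same lung samples 7 of 8 endothelial markers rose, with a mean level of 10.15 to 10.45 in treated lung and 9.21 to 9.65 in mock lung, and the part of this in the results on the nitric oxide partners was not tested.

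Of 6 genes that link ornithine with proline and glutamate 5 were tested, of which 2 rose in lung and 2 in marrow, with none lower, against 34.0% of all genes called in lung and 14.4% in marrow. Oat, ornithine aminotransferase, rose in lung (0.55, limma adjusted p = 0.00187) and in marrow (0.38, limma adjusted p = 0.0221). Aldh18a1, which makes the precursor of proline from glutamate, rose in marrow (0.62, limma adjusted p = 0.0140), and Prodh, proline dehydrogenase, rose in lung (0.37, limma adjusted p = 0.00740).

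Of 13 further genes of polyamine metabolism 12 were tested, of which 2 rose in lung and none fell, and 2 rose and 1 fell in marrow. The 2 of 12 called in lung are a smaller share than the 34.0% of all genes, and the 3 of 12 in marrow a larger one than the 14.4%. Paox, a polyamine oxidase, rose in both (lung 0.34, limma adjusted p = 0.0113; marrow 0.28, limma adjusted p = 0.0462). Srm, spermidine synthase, rose in marrow (0.51, limma adjusted p = 0.0496), Dhps, which uses spermidine to modify a translation factor, fell there (-0.28, limma adjusted p = 0.0286), and Oaz2, an ornithine decarboxylase antizyme, rose in lung (0.25, limma adjusted p = 0.0252). The 4 creatine genes all passed in lung, 3 higher and 1 lower, against 34.0% of all genes called, and 1 was higher and 1 lower in marrow, against 14.4%. Gatm, which joins arginine to glycine, had lung ratios of 0.53, 1.26 and 1.36 (mean 1.05 ± 0.45, SD, n = 3; limma adjusted p = 0.00589). Ckb, brain-type creatine kinase, rose in lung (0.98, limma adjusted p = 0.00029) and in marrow (0.54, limma adjusted p = 0.0102). Slc6a8, the creatine transporter, rose in lung (0.69, limma adjusted p = 0.0349). Gamt, which completes creatine synthesis, fell in lung (-0.31, limma adjusted p = 0.0185) and in marrow (-0.57, limma adjusted p = 0.00567).

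Of 15 receptors and transcription factors known to act on Arg1 or Nos2 in myeloid cells, 4 rose and 1 fell in lung, and 0 rose and 5 fell in marrow. The 5 of 15 called in lung are near the 34.0% of all genes, and the 5 of 15 in marrow are a larger share than the 14.4%. In lung, Il4ra, the interleukin-4 receptor chain, rose by 0.70 (limma adjusted p = 0.0131), Tlr4, the endotoxin receptor, by 0.65 (limma adjusted p = 0.00207) and Pparg, a nuclear receptor, by 0.81 (limma adjusted p = 0.0110). Stat3 was lower in lung (-0.53, limma adjusted p = 0.00493). In marrow the interferon-gamma receptor chains Ifngr1 and Ifngr2 were lower (-0.46 and -0.78, limma adjusted p = 0.0308 and 0.00375), as were Il13ra1, a chain of the interleukin-13 receptor (-0.52, limma adjusted p = 0.0209), and Spi1, the myeloid transcription factor PU.1 (-0.38, limma adjusted p = 0.0413). With median centring of each array in place of loess, limma called 0 genes in marrow. Every marrow call of a pathway gene named here was thus lost, and the ratios of Slc7a7, Nosip, Dhps, Ifngr1 and Spi1 were above 0. The lung calls of Got1, Slc25a13, Nosip, Gucy1b1, Oat, Prodh, Paox and Oaz2 were lost there too. So were those of Ckb, Gatm, Gamt, Slc6a8, Tlr4, Stat3, Pparg and Il4ra (limma adjusted p of 0.0587 to 0.89 for these lung calls). Those of Ddah2 and Gucy1a1 in lung held under all alternatives. The marrow calls of Slc7a7, Nosip, Paox, Srm, Ifngr1, Il13ra1 and Spi1 were also lost whichever bone marrow replicate was left out (limma adjusted p of 0.0579 to 0.2). That of Dhps was lost without bone marrow replicate 1 (limma adjusted p = 0.101), bone marrow replicate 2 (0.153) or lung replicate 2 (0.0585). In lung, the calls of Got1, Oaz2, Gamt, Slc6a8 and Il4ra were lost without lung replicate 2 or 3 (limma adjusted p of 0.0556 to 0.143). The lung call of Slc25a13 was lost without lung replicate 1 (limma adjusted p = 0.142), lung replicate 2 (0.114) or bone marrow replicate 1 (0.0516). That of Paox was lost without lung replicate 2 (limma adjusted p = 0.0506), and that of Slc6a8 whichever bone marrow replicate was left out (0.0527 to 0.0641).

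Arg1 is one of the genes of alternative macrophage activation, and most of the other genes of that list were also higher in treated lung. Of 10 listed genes 9 were tested, of which 7 rose in lung and none fell, against 34.0% of all genes called, and in marrow none passed, against 14.4%. In marrow 3 of the 9 were not well above background on any array in the treated channel (Retnla, Ccl17 and Il10). In the mock channel 4 were not, the same genes and Pdcd1lg2. For these genes the marrow ratios measure no response or lack of one. Mrc1, the mannose receptor, had ratios of 3.52, 2.49 and 2.34 in lung, a mean of 2.78 ± 0.64 (SD, n = 3; limma adjusted p = 0.000128). Its highest ratio lay on replicate 1, on which Arg1 had its lowest. Ccl24 had ratios of 2.37, 3.16 and 1.46, a mean of 2.33 ± 0.85 (SD, n = 3; limma adjusted p = 0.000676). Ccl17, also a chemokine, rose by 1.69 (limma adjusted p = 3.08e-05), and Pdcd1lg2, a checkpoint ligand, by 0.29 (limma adjusted p = 0.00982). The lung call of Pdcd1lg2 was lost under 3 of 17 alternatives, among them median centring (limma adjusted p = 0.106). Those of Mrc1, Ccl24 and Ccl17 were lost under 0. Of the 9 genes, 1 (Chil3, chosen after its values were seen) is also a macrophage marker here. The macrophage marker list, given above, moved in the same direction in the same samples, and its part was not tested.

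**Figure D5:**
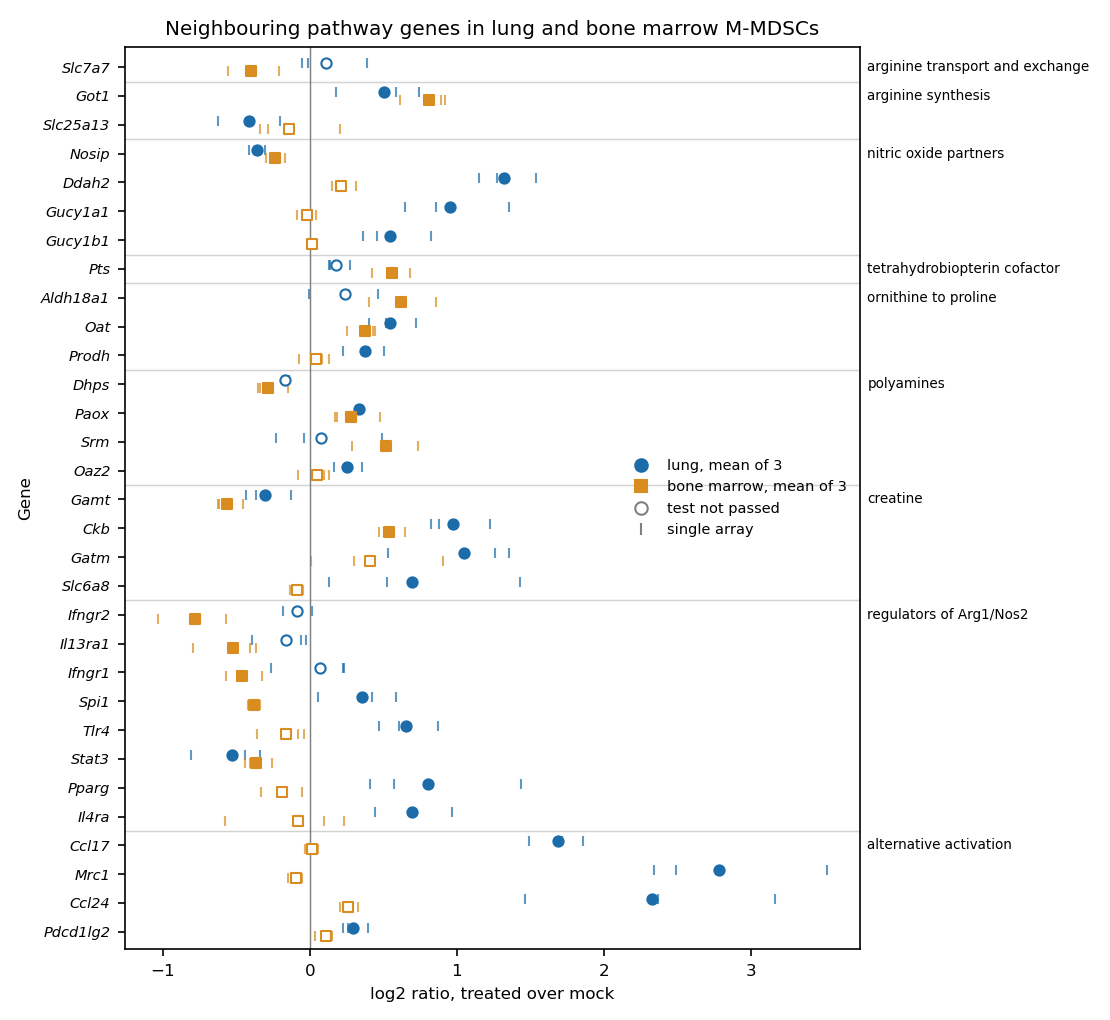
Log2 ratio of treated over mock (x axis) of the neighbouring pathway genes named in the text (rows, grouped by list) in lung (circles) and bone marrow (squares), with single arrays as ticks; open symbols did not pass the test. Ddah2, Mrc1, Ccl24 and Ccl17 stand at 1.32 to 2.78 in lung with open symbols near 0 in marrow, where Ccl17 was not well above background. Pts and Aldh18a1 are filled in marrow and open in lung.

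The genes whose 6 array ratios lay closest to those of each member were found by the root mean square difference of log2 ratios. For Arg1 they were Ppbp (0.32), Cxcl3 (0.35) and Mmp13 (0.41), with lung means of 2.25, 2.88 and 2.74 and marrow means of 0.07, -0.01 and -0.04. The marrow ratios of Arg1 that entered these distances came from spots not well above background. For Odc1 the nearest was Cxcl10 (0.18), whose ratios were -1.26, -0.20 and 0.09 in lung and 0.71, 0.80 and 1.05 in marrow. Slc7a1 lay closest to Utp4, Ppat and Tsr1 (0.07, 0.07 and 0.09), and Ass1 to Mrpl42, Gm9079 and Ago2 (all 0.09). Nos2 lay closest to Padi4 (0.15) and Arg2 to Gas7 (0.16), which share with them the negative value on lung replicate 1. Slc7a2 lay closest to Cracd (0.06). The arrays are shared by all genes, and these distances are a description over 6 arrays.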

How the data were processed

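RNA of M-MDSCs was hybridised to 6 two-colour arrays, and the log2 ratio of treated over mock was read per array. The deposited scanner files give each spot's intensity as measured by Agilent Feature Extraction 10.7.3.1, per the file headers. The authors' deposited matrices hold log2 ratios made with limma, per the submitters' processing notes, with settings not given in the sources used here.

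Mean spot intensity was corrected by normexp on the median local background with an offset of 50 and normalized by loess within arrays, with control spots at weight 0, in limma 3.58.1 (R 4.3.3, statmod 1.5.0). Channel levels were taken after Aquantile normalization. Spots with an outlier mark were dropped, and repeated spots of a probe were averaged. Of 39429 probes, 27693 were well above background on at least 2 of 3 arrays in 1 of the 4 combinations of tissue and channel and were kept, all 11 member probes among them. The brightest probe stood for a gene, which left 22096 genes. Probes were named by accession, symbol or synonym through RefSeq (26581, 2597 and 492 probes) and otherwise kept the file's name. One limma fit over the 6 arrays gave a mean per tissue and their difference, and one per channel the difference between tissues, each with Benjamini-Hochberg adjustment. Only the test of treated over mock in lung was checked on simulated data, which gave both tissues the same spread.

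The labels call the arrays biological replicates. Nothing says that equal replicate numbers pair the tissues.

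The members, gene lists and tests were chosen with earlier results of these data known. All 7 members and all their probes are named, as are for each pathway list up to 4 genes with the smallest p that passed, and for each member its nearest genes, of at most 3. One gene of a pathway list is not reported here. Alternatives covered background, offset, normalization, filter, probes, samples in the fit, the replicate block, the deposited log2 ratios and leaving out each array.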

Additional observations from a re-analysis of the deposited data

Results flagged for a closer look

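The test of the difference between the lung and bone marrow responses passed for the following genes, and no group was large enough for a check of single outlying arrays. For Arg1 the fitted difference was 2.39 (limma adjusted p = 0.00344), but its marrow signals were not well above background, so the value rests on the lung ratio of 2.42 and is not a measured difference between responses. The treated over mock log2 ratio of Odc1 was -0.44 in lung and 0.71 in marrow, a difference of -1.14 (limma adjusted p = 0.0427). This Odc1 call was lost under 8 of 16 alternatives, and no other Odc1 probe passed.

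Among the neighbouring genes, the difference was 1.11 for Ddah2, 0.97 for Gucy1a1, 0.53 for Gucy1b1, 0.81 for Tlr4, 0.69 for Ifngr2, 0.74 for Spi1 and 0.99 for Pparg. It was 1.67 for Ccl17, 2.88 for Mrc1 and 2.07 for Ccl24, and it was below 0 for Pts (-0.38). Spi1 was called in opposite directions in the tissues, with 0.35 in lung and -0.38 in marrow. Its marrow call was lost under 9 of 17 alternatives, and with median centring its marrow ratio was 0.18. Gucy1a1, Gucy1b1 and Ccl17 were not well above background in marrow, and the same holds for their differences as for that of Arg1. The call of the Mrc1 difference held under all 16 alternatives run for it, and those of the other differences in this paragraph were each lost under 1 to 10 of them. Tissue and slide cannot be told apart in any of these differences.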

How the results depend on the processing

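The Arg1 call in lung held under every alternative run for it (limma adjusted p of 5.19e-05 to 0.00818). The Arg1 difference between tissues passed in each as well (0.000331 to 0.0489), but its marrow ratio came from spots not well above background and lay between -0.22 and 0.36, so this shows nothing about a marrow response. Of 504 member values under alternatives, 433 kept their direction and their side of the threshold, 24 lost the threshold, 22 gained it and 25 changed sign, all 25 of values that had not passed. Of 236 values of the other probes 15 lost and 15 gained the threshold and 3 changed sign, and of 805 values of the named pathway genes 153 lost it and 5 changed sign. The cause was not tested.

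With median centring in place of loess, which left the median of all genes at 0.12 in lung and 0.20 in marrow, limma called 0 genes and 0 members in marrow (3951 genes and 3 members at an unadjusted p under 0.05), 963 genes and 1 member in lung, and 33 genes and 1 member for the difference. Ratios that changed sign there were -0.22 for Arg1 in marrow, 0.16 for Slc7a1 and 0.11 for Odc1 probe A_52_P436238 in lung, and in marrow 0.0906 for Slc7a7, 0.24 for Nosip, 0.18 for Dhps, 0.21 for Ifngr1 and 0.18 for Spi1. With the scanner's processed signals, 6464 genes and 2 members passed in marrow, 1 member in lung and 1 for the difference. Their sign changes were -0.11 for Nos2 in marrow, -0.37 for the Arg2 difference and 0.10 for Slc7a2 in mock lung over mock marrow. With the background from negative control spots, 5504 genes and 3 members passed in marrow, and Slc7a2 in mock lung over mock marrow was 0.00671. An offset of 16 gave -0.0468 for the Arg2 difference. Scaling between arrays and the absence of a filter each left 1 member for the difference. The deposited log2 ratios gave 2 members in marrow and -0.0075 for Nos2 there. Quantile normalization gave 0.0282 for Slc7a2 in mock lung over mock marrow and -0.0024 for Odc1 in treated lung over treated marrow. Separate fits per tissue gave 3 members in marrow and 1 in lung.

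The replicate number as a block gave 2 members in marrow, Odc1 and Slc7a1 (limma adjusted p of 0.0375 and 0.0184), and Ass1 did not pass (0.0507). Same-numbered arrays of the tissues deviated from their group means with correlations of 0.000434, 0.116 and 0.0474, and not every array correlated best with its own number, so the numbers were not taken as pairs.

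Leaving out 1 array at a time gave 0 to 3 members and 995 to 4078 genes in marrow, 1 to 3 members in lung, and 1 to 2 members and 1504 to 2848 genes for the difference. Values that changed sign ranged from -0.0387 to 0.0602 for Nos2 in marrow, -0.10 to 0.45 for Nos2 in lung and -0.11 to 0.44 for its difference. The ranges were -0.20 to 0.34 for the Arg2 difference, -0.10 to 0.0047 for Slc7a2 in marrow, -0.0716 to 0.0390 for Slc7a2 in mock lung over mock marrow and -0.19 to 0.0733 for Slc7a1 in lung. They were -0.0466 to 0.19 for Ass1 in lung, -0.0298 to 0.24 for its second probe, -0.35 to 0.13 for Odc1 probe A_52_P436238 in lung, and -0.10 to 0.19 for Odc1 in treated lung over treated marrow.

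In marrow Arg1 was not well above background on any array, Slc7a2 was well above it on 2 of 3 arrays in each channel, and Arg2 on 3 of 3 in treated and 2 of 3 in mock cells, which limits their ratios there. Nos2 was well above it on all 3 arrays but dim, and its processed-signal ratios in marrow ran from -0.56 to 0.44.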
